A study of Rattus norvegicus with 24 samples.

Results

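The miR-138 family of the rat comprises 1 guide strand, miR-138-5p (rno-miR-138-5p in the files), which is identical from 2 genes, and a separate 3p strand from each gene, miR-138-1-3p and miR-138-2-3p. The members were taken by name, as every row beginning rno-miR-138-, and they were 3 of the 728 miRNAs listed in the cortex counts and 3 of the 728 listed in the thalamus counts. All 3 passed the filter on low counts in both regions. The members were selected on their names, but the family itself was chosen by a reading of earlier results on the miR-138 counts of these same libraries, and which comparison led to the choice is not recorded. Its levels and differences between groups are therefore given as a description, without p-values. Where a member passed or missed the threshold of a test between groups, that is part of the description. It is not independent support, because the same counts led to the choice.

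Small RNA was sequenced from perilesional cortex (next to the lesion) and ipsilateral thalamus (on the side of the injury) of 12 adult male Sprague-Dawley rats. Of these, 6 had lateral fluid-percussion injury (the TBI group), in which a pressure pulse strikes the exposed dura, and 6 were sham-operated controls that had the surgery without the pulse. Tissue was taken 3 months after surgery. Both regions were sequenced from every rat, which made 24 libraries in 4 groups of 6. The study picked the TBI rats for chronic inflammation around the lesion on MRI, which limits them as a model of injury in general. The samples were pieces of whole tissue, so fewer cells of a type and less RNA per cell cannot be told apart in any value below.

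miR-138-5p is a brain-enriched miRNA. It is known from dendrites and synaptic preparations of rodent neurons, where it limits the size of dendritic spines through repression of Lypla1, the gene for a depalmitoylating enzyme also called APT1. A miRNA hairpin is cut to a duplex of a 5p and a 3p strand, of which usually one is loaded into Argonaute and kept while the other is mostly lost. The reads of the 3p strands are the only ones in these data that tell the 2 genes apart.

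The mature strands are shown because their seeds, bases 2 to 8 counted from the 5′ end, decide which messages a miRNA pairs with. The sequences are from RefSeq on the rat assembly GRCr8, each written 5′ to 3′ with the seed in capitals, and all 3 names had a match there.
miR-138-5p: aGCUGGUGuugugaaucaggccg
miR-138-1-3p: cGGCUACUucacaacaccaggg
miR-138-2-3p: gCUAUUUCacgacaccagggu
The 3 strands carried 3 different seeds, and no other mature miRNA in the RefSeq table shared any of them, so the family has no relative with the same seed to be confused with.

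The 2 genes lie on different chromosomes of GRCr8. Mir138-1 occupies chr8:131178434-131178532 on the plus strand, within the annotated spans of the lncRNA genes LOC103690480 and LOC102550701. Mir138-2 occupies chr19:10680133-10680214 on the minus strand, within the annotated span of Slc12a3, which encodes the thiazide-sensitive sodium-chloride cotransporter. The hairpins are shown to place the 3 strands, with both mature arms in capitals.
Mir138-1: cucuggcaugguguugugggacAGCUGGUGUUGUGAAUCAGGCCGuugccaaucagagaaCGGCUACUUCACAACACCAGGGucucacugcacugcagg
Mir138-2: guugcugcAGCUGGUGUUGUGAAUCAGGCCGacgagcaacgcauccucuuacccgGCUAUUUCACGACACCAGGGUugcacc
The 5p arm was the same 23 bases in both hairpins, while the stretch between the arms was 15 bases in Mir138-1 and 24 bases in Mir138-2. The 3p strand of the second gene began 2 bases later than that of the first. Over the 20 bases they share, 18 were identical, with the substitutions C7U and A13G (the base of miR-138-1-3p first, positions counted from its 5′ end, then the base of miR-138-2-3p). A read of miR-138-5p therefore cannot be assigned to a gene, whereas the 3p strands differ by start and by both substitutions.

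The libraries held 744564 to 4069284 miRNA reads in cortex and 523298 to 4139901 in thalamus. miR-138-5p had 714 to 3810 reads per library in cortex and 257 to 3332 in thalamus. miR-138-1-3p had 10 to 129 reads and miR-138-2-3p 4 to 62, so the 3p values rest on far fewer reads. Levels are given as read counts per 1000000 miRNA reads (CPM) after TMM scaling, which corrects the library totals for differences in composition, on 1 of 2 scales. Region-scale CPM was scaled within the 12 libraries of a region and serves TBI against sham, and common-scale CPM was scaled over all 24 libraries and serves cortex against thalamus. The thalamic library of sham rat 55 stood apart: it was the shallowest, and its summed region-scale CPM of 4 neuronal marker miRNAs was 312862, against 114594 to 150656 in the other sham thalami. The sum is mostly miR-128-3p, with a mean of 145860 of 164434 CPM in sham thalamus. In rat 55 there were 12405 reads of miR-129-5p, 1584 of miR-124-3p and 39 of miR-137-3p. In the same library 523 reads of miR-138-5p equalled 1342 region-scale CPM. At that scale miR-129-5p lay above the sham thalamus mean of 11449 CPM. miR-124-3p and miR-137-3p lay below theirs of 6830 and 296 CPM, so the high sum does not hold for each marker. The library was singled out after seeing the data, and the main values that use it are given without it as well.

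Among miRNAs, miR-138-5p was of upper-middle abundance. In cortex its mean region-scale level was 1135 CPM (SD 138, n = 12), rank 72 of 371 miRNAs tested, between miR-92a-3p at 1156 and miR-300-3p at 1131 CPM. In thalamus it was 813 CPM (SD 237, n = 12), rank 96 of 390, between miR-1839-5p at 826 and miR-7b at 805 CPM. These neighbours differed from it by less than the SD over libraries. The 3p strands were rarer. miR-138-1-3p averaged 33.9 CPM in cortex (SD 7.28, rank 267) and 27.5 CPM in thalamus (SD 5.33, rank 294) on the region scale. miR-138-2-3p averaged 14.0 CPM in each region (SD 4.60 in cortex and 3.04 in thalamus), at ranks 319 and 338.

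Over the 4 groups the mean common-scale level of miR-138-5p was 1312 CPM in sham cortex (SD 180), 1209 in TBI cortex (SD 182), 882 in sham thalamus (SD 177, or 825 and SD 120 without rat 55) and 581 in TBI thalamus (SD 64.6, n = 6 each). In that order the 2 cortical groups differed by less than their SD, while each further step was larger than the SD of either group.

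The first comparison asks how the family stood in perilesional cortex 3 months after injury. miR-138-5p was at nearly the same level in both groups. In sham cortex the region-scale level ran from 1007 to 1320 CPM with a median of 1136, and in TBI cortex from 962 to 1381 CPM with a median of 1061. The groups overlapped almost completely, with 1 TBI library above and 1 below every sham library. The log2 fold change of TBI over sham was -0.07 (SE 0.13), against a median of 0.05 over the 371 miRNAs tested, of which 240 had a higher value. Scaling by library size alone turned its direction, to 0.13.

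The 3p strands differed as little in cortex. miR-138-1-3p ran from 25.8 to 41.0 CPM in sham (median 36.3) and from 22.8 to 43.4 CPM in TBI (median 32.9) on the region scale, and its log2 fold change was -0.08 (SE 0.21). miR-138-2-3p ran from 5.54 to 24.0 CPM in sham (median 13.9) and from 10.7 to 16.8 CPM in TBI (median 14.0), and its log2 fold change was -0.04 (SE 0.28). Library-size scaling turned both, to 0.14 and 0.21. Of the 3 members, 0 were among the miRNAs called at an adjusted p of 0.05 in the edgeR quasi-likelihood test, where 5.93% of all miRNAs tested were called, 80 of the 371 had an unadjusted p under that value and DESeq2 called 35. The summed region-scale level of the neuronal markers was lower in TBI cortex, 166695 to 228732 CPM against 219756 to 432776 in sham. That sum is nearly all miR-128-3p, with a mean of 295464 of 310749 CPM in sham cortex, which was the only one of the 4 called. The log2 fold changes of miR-124-3p (0.15) and miR-137-3p (0.22) were above 0, and that of miR-129-5p (-0.44, SE 0.27) was below 0. The part of these markers in the values of miR-138 was not tested.

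**Figure D1:**
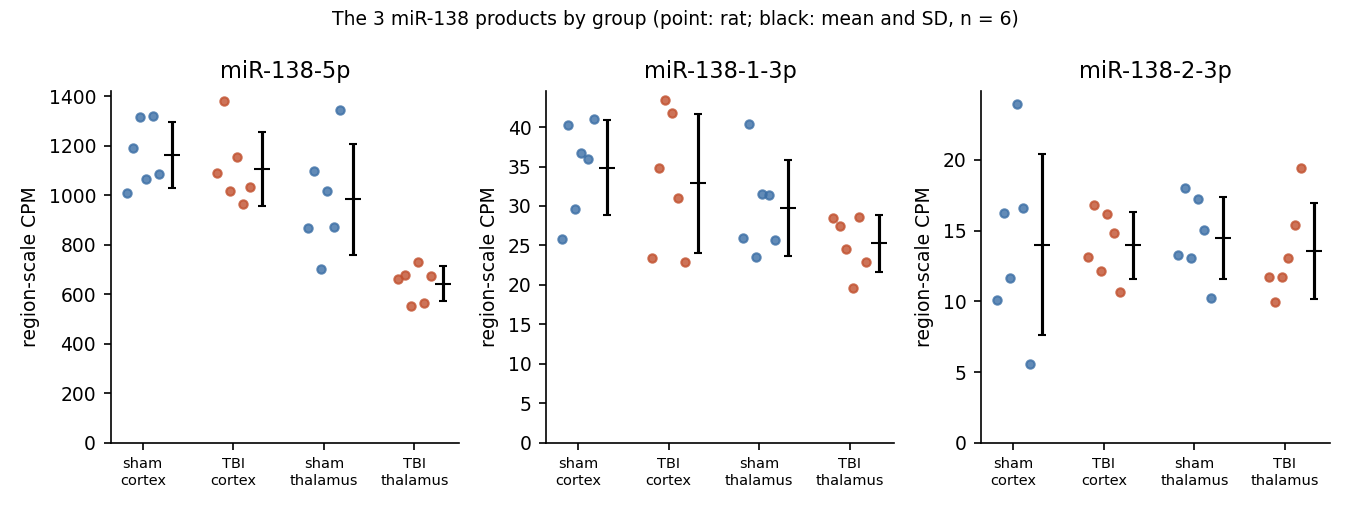
Level of each miR-138 product in region-scale CPM (linear axis from 0), 1 point per rat, with the mean and SD of each group of 6 in black, sham in blue and TBI in orange. Levels are to be compared between sham and TBI within a region, and the largest separation is that of miR-138-5p in thalamus, 701 to 1342 CPM in sham and 553 to 729 CPM in TBI.

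The second comparison asks the same of the ipsilateral thalamus, which is connected to the injured cortex. Here miR-138-5p was lower in TBI rats. In sham thalamus the region-scale level ran from 701 CPM in rat 34 to 1342 CPM in rat 55, with a median of 945. In TBI thalamus it ran from 553 CPM in rat 45 to 729 CPM in rat 52, with a median of 667. The groups met only where TBI rat 52 lay above sham rat 34, and the other 5 TBI libraries were below every sham library. The SD was 69.3 CPM in TBI and 223 CPM in sham, or 153 CPM in sham without rat 55, and by library size alone it was 120.1 CPM in TBI and 120.2 CPM in sham.

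The log2 fold change of miR-138-5p in thalamus was -0.61 (SE 0.18), a level 0.655 times that of sham. Of the 390 miRNAs tested 10 had a lower value, and the median over all of them was -0.03. Without sham rat 55 the count was 26 of 393 with a median of 0.09, and with no filter 65 of 603. It was not among the called miRNAs of the fit on the 12 thalamic libraries, in which 0.513% were called, all of them higher in TBI, while 20 had an unadjusted p under 0.05 and DESeq2 called 3, again all higher. In a fit over all 24 libraries, which shares the estimate of spread between regions, the value was -0.60 and it was called, beside a share of 1.23% called. On the common scale the groups did not overlap, at 688 to 1171 CPM in sham and 506 to 679 CPM in TBI, which was so in this direction for 0.246% of the 407 miRNAs tested, that is for miR-138-5p alone. By library size alone they overlapped, at 805 to 1120 CPM in sham and 478 to 846 CPM in TBI.

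Sham rat 55 held the highest thalamic value, and without it the log2 fold change was -0.43 (SE 0.16). Without that library and the shallowest TBI library, rat 56, both left out after seeing the data, it was -0.46. The summed region-scale level of the 4 neuronal markers ran from 114594 to 312862 CPM in sham thalamus and from 83650.5 to 204267 CPM in TBI thalamus, and 0 of the 4 were called. The 312862 was that of rat 55, and the next sham value was 150656. Most of the sum is miR-128-3p, with a mean of 145860 of 164434 CPM in sham and 118655 of 131709 CPM in TBI. The log2 fold changes of all 4 were below 0, at -0.30 for miR-128-3p, -0.36 for miR-124-3p, -0.20 for miR-137-3p and -0.62 for miR-129-5p. That of miR-129-5p turned to 0.08 without sham rat 55. The summed level of the leukocyte and microglia markers ran from 817 to 1332 CPM in sham and from 1163 to 2131 CPM in TBI. Most of it was miR-150-5p, with a mean of 1016 of 1098 CPM in sham and 1413 of 1571 CPM in TBI, which was not called. Of those markers 4 of 5 could be tested and 1 was called higher, miR-155-5p, an inflammation-induced miRNA, at 1.45 on the log2 scale (SE 0.26, adjusted p = 0.0189 by the edgeR quasi-likelihood test). That call was lost without sham rat 26 (1.42), 32 (1.53) or 34 (1.42) and when scaled to 4 reference miRNAs (1.27). It rests on few reads of miR-155-5p, 2 to 20 per library in sham thalamus and 5 to 64 in TBI thalamus. The oligodendrocyte marker sum was alike in both groups, with a mean of 14546 CPM in sham and 14527 CPM in TBI. The part of the neuronal and leukocyte markers in the miR-138-5p value was not tested.

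The 3p strands in thalamus differed less than the guide strand. miR-138-1-3p ran from 23.6 to 40.4 CPM in sham (median 28.7) and from 19.6 to 28.6 CPM in TBI (median 25.96) on the region scale, and its log2 fold change was -0.25 (SE 0.20). miR-138-2-3p ran from 10.3 to 18.0 CPM in sham (median 14.2) and from 9.97 to 19.4 CPM in TBI (median 12.4), with a log2 fold change of -0.14 (SE 0.22). The groups overlapped for both strands, and neither strand was called. Without sham rat 55 the values were -0.21 and -0.12.

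The third comparison sets the 2 regions of sham-operated rats side by side. In sham rats miR-138-5p was higher in cortex. The common-scale level ran from 1071 to 1555 CPM in sham cortex, with a median of 1278, and from 688 to 1171 CPM in sham thalamus, with a median of 829. Of the 6 cortex libraries 5 lay above every thalamic library, and the overlap came from rat 55, whose thalamus at 1171 CPM exceeded the lowest cortex at 1071 CPM. The log2 fold change of cortex over thalamus was 0.57 (SE 0.14), a level 1.49 times as high, and it was among the called miRNAs in a comparison in which 25.1% of the 407 tested were called.

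Within each sham rat the cortex exceeded the thalamus in 6 of 6 animals, by a mean of 0.58 on the log2 scale (SD 0.41), but the size ranged from 0.04 in rat 55 to 1.18. Without rat 55 the fitted value was 0.68. The call ended without sham rat 50, where the value was 0.43. It also ended when libraries were scaled to 4 reference miRNAs, at 0.54, and by library size alone, at 0.18. Of the 4 reference miRNAs 1, miR-330-5p, was itself called lower in cortex, at -0.64 in sham and -0.61 in TBI rats. Library size alone moved the median of all miRNAs in this comparison from -0.04 to -0.46. One neuronal marker, miR-128-3p, made up 20.9 to 32.8% of the unscaled miRNA reads of sham cortex libraries and 11.6 to 20.6% of those of sham thalamus, and its part in that shift was not tested.

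The fourth comparison sets the same regions side by side after injury. In TBI rats the gap was wider. The common-scale level of miR-138-5p ran from 1025 to 1508 CPM in TBI cortex, with a median of 1149, and from 506 to 679 CPM in TBI thalamus, with a median of 587. Every TBI cortex library lay above every TBI thalamus library, which was so in this direction for 6.88% of the miRNAs tested. The fitted log2 fold change was 1.06 (SE 0.15), a level 2.08 times as high, with 27 of the 407 miRNAs higher, in a comparison in which 27.3% were called, miR-138-5p among them. Within TBI rats the cortex exceeded the thalamus in 6 of 6 animals, by a mean of 1.05 on the log2 scale (SD 0.20, from 0.83 to 1.33).

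**Figure D2:**
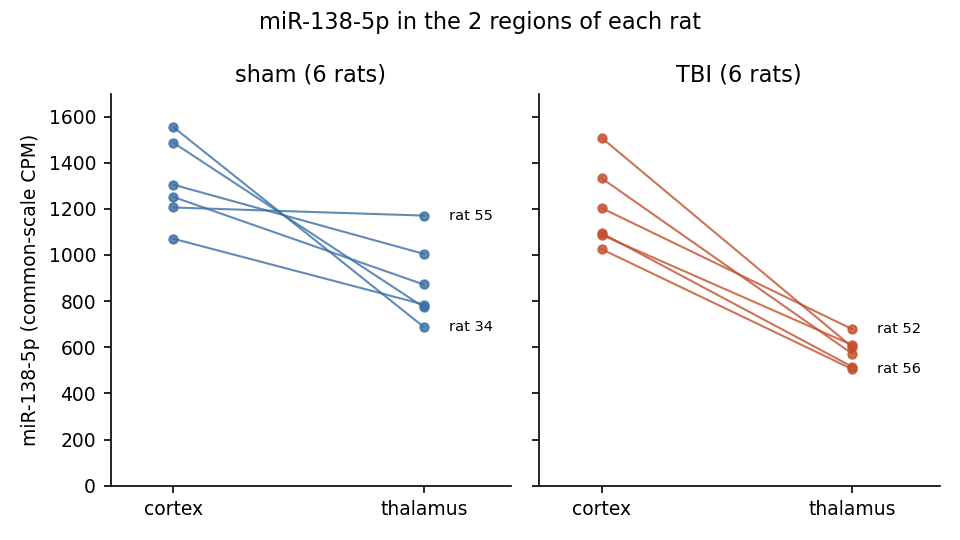
Level of miR-138-5p in common-scale CPM (linear axis from 0) in cortex and thalamus, with a line joining the 2 libraries of each rat, for 6 sham rats on the left and 6 TBI rats on the right. All 12 lines fall from cortex to thalamus, most weakly in sham rat 55, and the TBI thalamic values of 506 to 679 CPM lie below all sham thalamic values.

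The wider gap in TBI rats was set against the gap in sham rats directly. The difference between the injury effects, cortex minus thalamus, was 0.48 for miR-138-5p on the log2 scale (SE 0.20), and 50 of the 407 miRNAs had a higher value, or 95 of 412 without sham rat 55. It was not called, in a test in which 0.0% of all miRNAs were called by edgeR, 17 had an unadjusted p under 0.05, and DESeq2 called 0 with 18 unadjusted. For miR-138-1-3p the same difference was 0.12 (SE 0.26), and for miR-138-2-3p it was 0.06 (SE 0.36). Without sham rat 55 the 3 values were 0.38, 0.21 and -0.01, in the order miR-138-5p, miR-138-1-3p, miR-138-2-3p.

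Of the 3p strands, that of the first gene was higher in cortex and that of the second was not separated. miR-138-1-3p ran from 27.4 to 45.6 CPM in sham cortex and from 22.4 to 37.0 CPM in sham thalamus on the common scale, with a log2 fold change of 0.54 (SE 0.19). In TBI rats it ran from 24.0 to 46.7 CPM in cortex and from 18.3 to 25.6 CPM in thalamus, with a log2 fold change of 0.66 (SE 0.19). Both were among the called miRNAs, and within rats the cortex was higher in 6 of 6 sham and 6 of 6 TBI animals. Both calls were fragile. The sham call was lost without any one of 9 rats (values 0.45 to 0.56, with 0.45 without rat 55). It was also lost by library size alone (0.09), scaled to 4 reference miRNAs (0.43), with no filter (0.53) and without both shallowest thalamic libraries (0.47). The TBI call was lost without rat 24, 45 or 52 (values 0.45 to 0.55), by library size alone (0.49) and scaled to 4 reference miRNAs (0.73).

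miR-138-2-3p ran from 6.16 to 28.1 CPM in sham cortex and from 8.95 to 16.5 CPM in sham thalamus on the common scale, with a log2 fold change of 0.28 (SE 0.26). Library size alone turned that value to -0.22, and without rat 55 it was 0.36. In TBI rats the log2 fold change was 0.34 (SE 0.26). Neither was called, and the cortex was higher in 4 of 6 sham and 5 of 6 TBI rats.

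The marker miRNAs differed between the regions as well. The 3 oligodendrocyte markers, miR-219a-2-3p, miR-219a-5p and miR-338-3p, were all called lower in cortex in both sham and TBI rats, and their summed region-scale level was 3125 to 4682 CPM in cortex libraries against 10326 to 20164 in thalamus libraries. Of the 4 neuronal markers 1 was called higher in cortex in sham rats and 3 in TBI rats. The summed region-scale level of the 4 epithelial markers was 1.78 to 12.8 CPM in all libraries except both of TBI rat 45, at 102 CPM in cortex and 37.5 CPM in thalamus. Without rat 45 the log2 fold change of miR-138-5p after injury was -0.10 in cortex and -0.51 in thalamus, and that between the TBI regions 0.93. The part of these markers in the regional values of miR-138 was not tested.

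**Figure D3:**
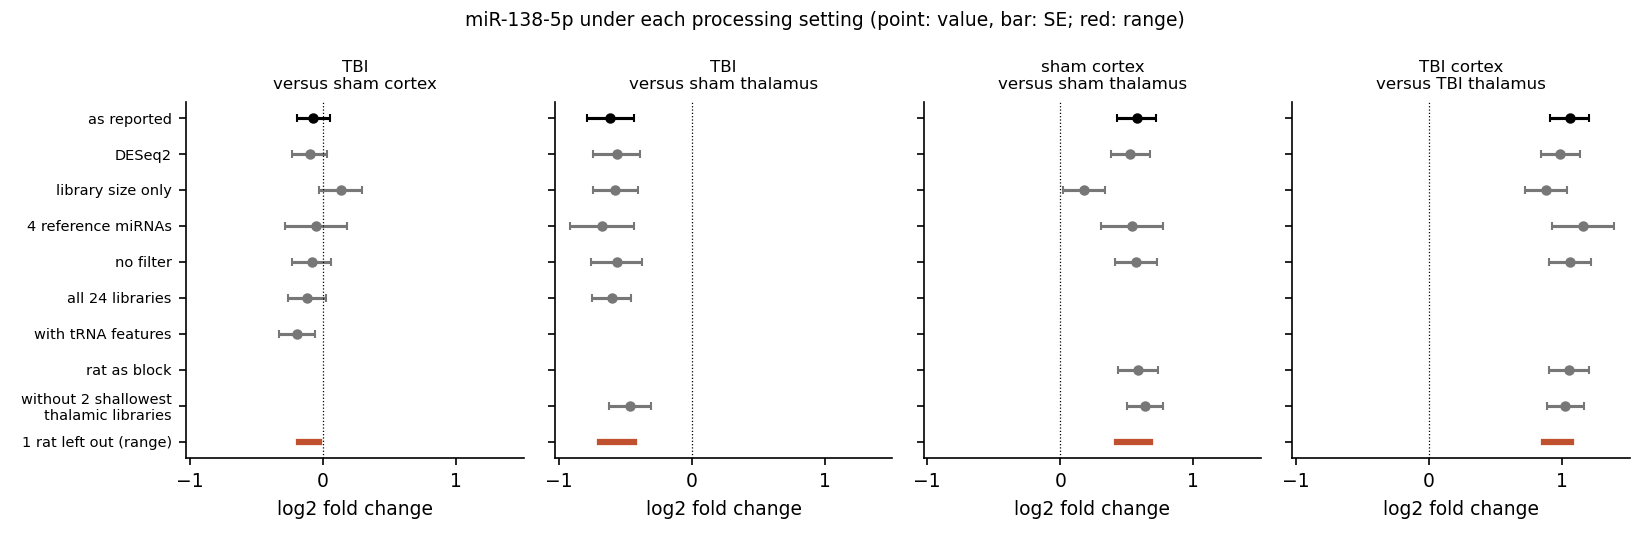
Log2 fold change of miR-138-5p in the 4 comparisons (one panel each) under each processing setting, with the SE as a bar, the reported value in black, and in red the range when 1 rat was left out. The thalamic injury value stays between -0.69 and -0.43 and the TBI regional value between 0.87 and 1.16, while library size alone moves the sham regional value to 0.18 and the cortical value to 0.13.

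The balance of the 2 arms was read directly from the counts, which needs no scaling. Each read is 1 mature strand, so the ratio counts reads and not molecules. In sham cortex there were 17.6 to 31.9 reads of miR-138-5p for each 3p read of either gene, with a median of 24.2, and in TBI cortex 18.3 to 30.9, with a median of 23.9. The cortical groups overlapped over nearly their whole range. In sham thalamus the ratio was 18.8 to 37.4 with a median of 20.0, and in TBI thalamus 12.9 to 22.3 with a median of 16.2. Of the TBI thalami 5 lay below every sham thalamus, and the highest TBI value, in rat 52, lay above 5 of the 6 sham values. The 37.4 of sham rat 55 rests on 14 reads of the 3p strands, and without it the sham thalami ran from 18.8 to 22.1.

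The 3p reads also give the share of the first gene among the 3p strands. In sham cortex 60.5 to 88.1% of 3p reads were miR-138-1-3p (mean 72.0%, SD 8.99, n = 6), and in TBI cortex 64.0 to 78.2% (mean 69.6%, SD 4.95). In sham thalamus the share was 64.4 to 71.4% (mean 67.2%, SD 2.72, or 66.4% without rat 55) and in TBI thalamus 54.1 to 73.3% (mean 65.2%, SD 7.14). The miR-138-1-3p strand was thus the more frequent of the 2 in all 24 libraries, and the 4 groups overlapped. The Wilson 95% interval of a single library was wide. It was 75.0 to 94.8% for the highest, sham cortex of rat 55 with 42 reads, and 43.6 to 64.3% for the lowest, TBI thalamus of rat 63 with 85 reads. These intervals cover counting error only, because reads copied by PCR from the same molecule are not independent.

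**Figure D4:**
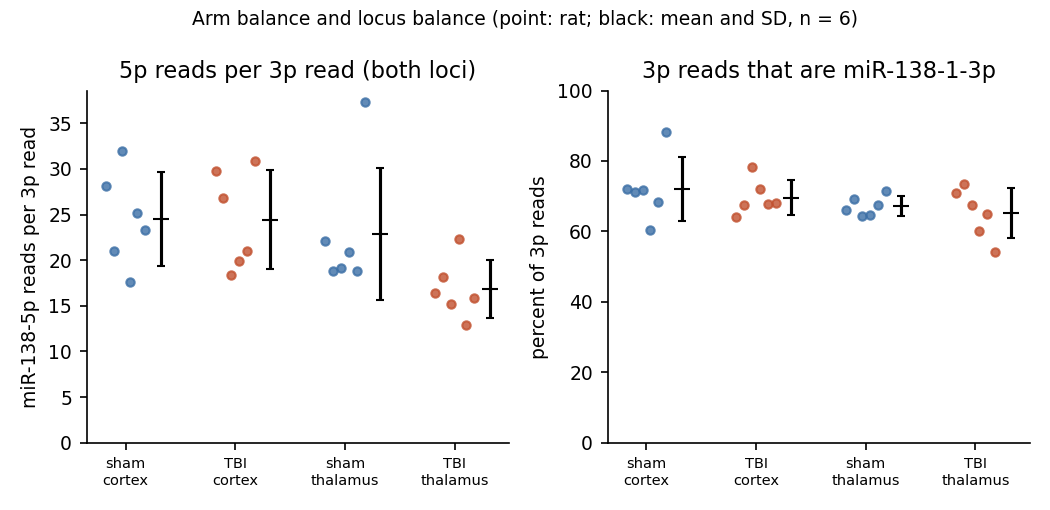
Left, miR-138-5p reads per 3p read of either gene, and right, the percentage of 3p reads that were miR-138-1-3p, with 1 point per rat and the mean and SD of each group of 6 in black (both axes linear from 0). The TBI thalamus has the lowest mean arm ratio, 16.8, and its range of 12.9 to 22.3 overlaps that of every other group. The sham thalamus has 1 high point of 37.4 from rat 55, while the locus share lies above 54% in every library.

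Whether a rat with more miR-138-5p in cortex also had more in thalamus was asked within each group. Values were log2(region-scale CPM + 1). Over the family 7 relations were computed, of which 0 passed an adjusted p of 0.05 for r and 0 an unadjusted one. In TBI rats Pearson's r was 0.63 (exact two-sided permutation p = 0.117, adjusted p = 0.564, n = 6) and Spearman's rho 0.83 (exact permutation p = 0.0583, adjusted p = 0.408). Without the 2 rats farthest from the median, r was 0.80. In sham rats r was -0.48 (exact permutation p = 0.325, adjusted p = 0.598, n = 6) and rho -0.14 (exact permutation p = 0.803, adjusted p = 0.919). That value turned to 0.50 without the 2 farthest rats, so it rests on them.

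The other 5 relations were between miR-138-5p and a 3p strand within a group, on the region scale. With miR-138-1-3p, r was 0.13 in sham cortex, 0.21 in TBI cortex, 0.35 in sham thalamus and -0.48 in TBI thalamus, with exact permutation p values of 0.803, 0.756, 0.461 and 0.342 (adjusted 0.803, 0.803, 0.646 and 0.598, n = 6 each). The rho values were 0.09, 0.09, 0.43 and -0.54, with exact permutation p values of 0.919, 0.919, 0.419 and 0.297 (adjusted 0.919, 0.919, 0.734 and 0.694, n = 6 each). Without the 2 farthest rats these r values were 0.77, 0.19, 0.85 and -0.85. miR-138-2-3p reached 10 reads in every library only in TBI cortex, where r was 0.62 (exact permutation p = 0.161, adjusted p = 0.564, n = 6), rho 0.60 (exact permutation p = 0.242, adjusted p = 0.694) and r without the 2 farthest 0.91. With 6 pairs, the strands of a hairpin were not shown to vary together.

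The miRNAs whose levels were most like those of miR-138-5p were sought among the 216 with a mean of at least 100 common-scale CPM, over log2 values of the 24 libraries. The 5 with the highest Pearson r were miR-132-3p (0.88), miR-873-5p (0.88), miR-132-5p (0.85), miR-181c-5p (0.85) and miR-139-5p (0.83). All 5 had their highest mean in sham cortex and their lowest in TBI thalamus, as miR-138-5p did. For miR-132-3p, an activity-regulated neuronal miRNA, the common-scale group means were 3437 CPM in sham cortex, 2271 in TBI cortex, 1132 in sham thalamus and 883 in TBI thalamus. The points share rats, libraries and scaling factors, and the 4 groups set much of the likeness. Without the thalamic library of sham rat 55 the 5 r values ran from 0.84 to 0.90.

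Once each library was expressed as its deviation from its own group mean, the order changed. The highest r was then that of miR-425-5p (0.70), followed by miR-151-5p (0.58), miR-181c-5p (0.53), miR-873-5p (0.52) and miR-132-3p (0.49), over the same 24 libraries. Without the thalamic library of sham rat 55 they were 0.63, 0.42, 0.56, 0.35 and 0.43. Of the 5 miRNAs, 3 were in both lists. The common-scale group means of miR-425-5p ran from 171 to 207 CPM and were higher in thalamus than in cortex, unlike those of miR-138-5p.

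A list of 20 other miRNAs with reported roles in dendrites, spines or synaptic plasticity was set beside the family, of which 19 could be tested. The list was drawn up for those roles but with earlier results of these data known, so its calls are not independent support. In cortex, where 5.93% of all miRNAs were called, 2 of the 19 fell after injury and 0 rose, whereas by library size alone 1 was lower and 3 were higher. They were miR-128-3p, which limits neuronal excitability, at -0.75 on the log2 scale (SE 0.16, adjusted p = 0.0240) and miR-132-3p at -0.55 (SE 0.15, adjusted p = 0.0355), both by the edgeR quasi-likelihood test. The list's median was -0.27 beside 0.05 for all miRNAs, and by library size alone -0.05 beside 0.25. The count of 2 went to 0 without TBI rat 24 or sham rat 38, when scaled to 4 reference miRNAs and in the 24-library fit, and to 1 without sham rat 26, 32 or 50 or TBI rat 63.

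In thalamus 0 of the 19 passed the edgeR or the DESeq2 test, and 3 had a value above 0. The list's median log2 fold change was -0.30, beside -0.03 for all miRNAs tested and -0.61 for miR-138-5p. Without sham rat 55 these were -0.07, 0.09 and -0.43. The largest values were those of miR-34a-5p, a p53-regulated miRNA, at -0.87 (SE 0.24, adjusted p = 0.224 by edgeR) and miR-129-5p at -0.62 (SE 0.46, adjusted p = 0.804 by edgeR). Without sham rat 55 the value of miR-129-5p turned to 0.08, while in the 24-library fit miR-34a-5p was called at -0.86. miR-138-5p thus lay below the list's median in thalamus and above it in cortex. The 2 regions come from the same rats, so these values are not independent.

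**Figure D5:**
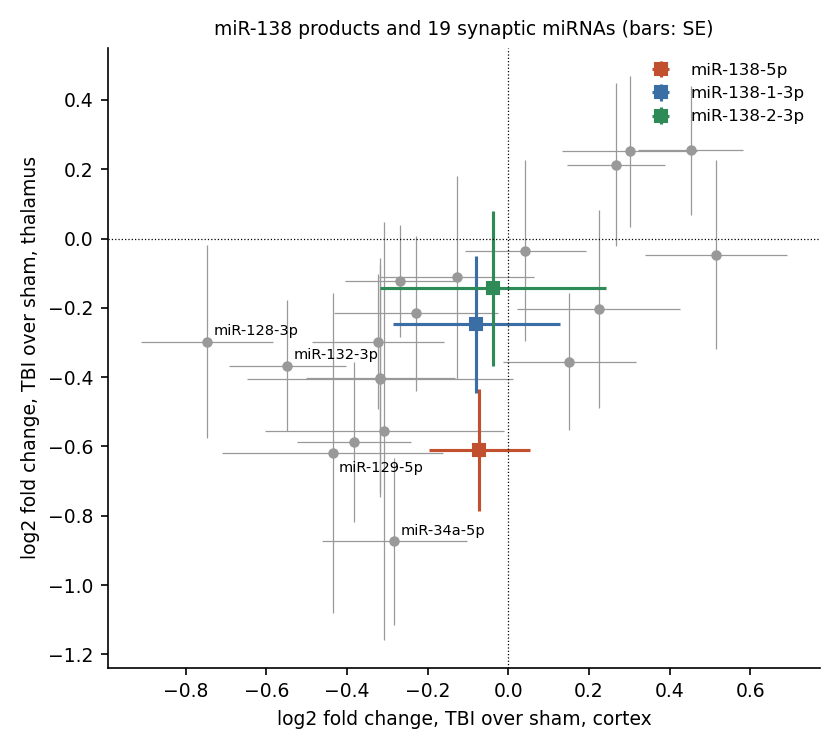
Log2 fold change of TBI over sham in cortex (x axis) against thalamus (y axis) for 19 synaptic miRNAs in grey and the 3 miR-138 products in colour, with SE bars in both directions. miR-138-5p sits near 0 in cortex and at -0.61 in thalamus, whereas miR-128-3p and miR-132-3p have their larger values in cortex, -0.75 and -0.55.

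Between the regions of sham rats 5 of the 19 were higher in cortex and 1 lower, in a comparison with 25.1% of all miRNAs called, and the list median was 0.13 beside -0.04 for all miRNAs. By library size alone 4 were higher and 5 lower, with a list median of -0.32 beside -0.46. The smallest adjusted p values by edgeR were those of miR-132-3p (log2 fold change 1.60, SE 0.17, adjusted p = 8.32e-08), miR-135a-5p (-1.79, SE 0.25, adjusted p = 5.44e-06), miR-218a-5p (1.17, SE 0.19, adjusted p = 3.81e-05) and miR-128-3p (1.34, SE 0.23, adjusted p = 6.34e-05). In TBI rats 7 were higher and 1 lower, with 27.3% of all miRNAs called, and the median was 0.28 beside 0.03. By library size alone 5 were higher and 2 lower, with a median of 0.08 beside -0.15. miR-132-3p was again first (1.36, SE 0.16, adjusted p = 1.02e-06), followed by miR-218a-5p (1.34, SE 0.19, adjusted p = 7.95e-06), miR-212-3p (1.13, SE 0.22, adjusted p = 0.000446) and miR-135a-5p (-1.23, SE 0.25, adjusted p = 0.000485). The count of 8 went to 5 without TBI rat 52.

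For the difference between the injury effects, 0 of the 19 were called by edgeR or DESeq2, and the list's median was 0.04. The largest values were those of miR-135a-5p at 0.55 (SE 0.34) and miR-34a-5p at 0.53 (SE 0.31), each with an adjusted p of 1.00 by edgeR. The value of miR-138-5p, 0.48, was of similar size with a smaller SE of 0.20.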

How the data were processed

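Per the labels and the study's methods, the authors made libraries from total RNA with a NEBNext kit, sequenced them, trimmed adapters, checked quality with FastQC, mapped reads to the rat assembly RGSC3.4 and annotated them with miRBase 20. How reads that fit both miR-138 genes were counted is not given in the sources used here. The authors deposited whole read counts per miRNA, and CPM tables in which each checked value was the deposited count divided by 1 constant per library. Counts were used here. In cortex the counts also listed 444 tRNA features, used only as an alternative.

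Counts were tested with edgeR 4.0.16 (R 4.3.3; filterByExpr, TMM, robust quasi-likelihood test, Benjamini-Hochberg over all miRNAs tested, threshold 0.05). Injury was fitted per region on 12 libraries, and region and interaction on all 24. Each SE came from the size of the log2 fold change over the root of its F statistic. The steps were tested on simulated data. Alternatives were DESeq2 1.42.0, other scalings, no filter, a joint fit, tRNA features included, rat as a block and leaving out each rat.

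Groups and rat numbers came from the sample titles, and a number names 1 animal, so replicates are separate rats and the 2 libraries of a number are paired. Deviations from group means correlated between the 2 libraries of a rat with a median r of 0.45 over 361 miRNAs (from -0.28 to 0.67, above 0.1 in 8 of 12 rats). In TBI rats r ran from 0.33 to 0.67, and in sham rats from -0.28 to 0.58. All rats not above 0.1 were sham (rats 26, 32, 50 and 55), and for them the pairing rests on the titles alone. No 2 libraries of a group agreed within sampling noise (chi-square per degree of freedom at least 23.7 in 60 pairs).

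The members and lists were chosen with earlier results of these data known. Named were all miR-138 strands, from the synaptic list at most the 4 called members with the smallest adjusted p per comparison and otherwise the 2 with the largest absolute log2 fold change, the neighbours in abundance, the 5 most alike by each measure, miRNAs sharing a seed, and marker miRNAs. Marker lists for neurons, oligodendrocytes, leukocytes or microglia, vessels, red cells and epithelium were summed per library.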

Additional observations from a re-analysis of the deposited data

Results flagged for a closer look

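Of 40 sets of 6 values of the family (1 measure in 1 group), 4 had a highest value set apart by Dixon's test at the 95% level, where chance gives about 2. All 4 were in sham thalamus. The common-scale level of miR-138-1-3p was 37.0 CPM in rat 32 against 27.8 in the next rat, a gap of 0.63 of the group's range. The other 3 were the arm ratios of rat 55, whose library was the shallowest and held 10 reads of miR-138-1-3p and 4 of miR-138-2-3p. It had 37.4 reads of miR-138-5p per 3p read against 22.1 in the next rat (0.823 of the range). Per read of miR-138-1-3p it had 52.3 against 33.3 (0.755 of the range), and per read of miR-138-2-3p 131 against 65.3 (0.85 of the range). These 3 ratios share the same reads and are not separate observations.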

How the results depend on the processing

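The injury value of miR-138-5p in thalamus kept its direction under every alternative run (-0.69 to -0.43 with 1 rat left out, -0.67 to -0.46 under the others). It was called only in the 24-library fit, at -0.60, and not in the main fit. The TBI regional value was called throughout (0.87 to 1.07 with 1 rat left out, 0.88 to 1.16 otherwise). The sham regional value was 0.43 to 0.68 with 1 rat left out, and lost its call without sham rat 50 (0.43), by library size alone (0.18) and scaled to 4 reference miRNAs (0.54). With rat as a replicate block the regional values were 0.59 in sham and 1.05 in TBI and the interaction 0.47, and no call of miR-138-5p changed. The interaction was 0.38 to 0.60 with 1 rat left out, 0.39 to 0.71 otherwise, and never called. Library size alone moved the median of all miRNAs to 0.25 in cortex and -0.46 between sham regions, and reversed miR-138-5p (0.13), miR-138-1-3p (0.14) and miR-138-2-3p (0.21) in cortex and miR-138-2-3p between sham regions (-0.22). The cause of these changes was not tested.

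With 1 rat left out, values of the 3p strands that crossed 0 were -0.24 to 0.004 for miR-138-1-3p and -0.25 to 0.20 for miR-138-2-3p in cortex, -0.21 to 0.0245 for miR-138-2-3p in thalamus, and -0.0111 to 0.21 and -0.14 to 0.29, in that order, for the interaction. That of miR-129-5p in thalamus ran from -0.9206 to 0.077, crossing 0 without sham rat 55. The sham within-rat r of -0.48 became 0.50 without the 2 farthest rats. The 22 calls in cortex (11 higher) became 35 with DESeq2, 39 by library size (36 higher), 0 with reference scaling, 5 in the 24-library fit and 4 to 30 with 1 rat left out, fewest without sham rat 38. The 2 in thalamus became 0 with reference scaling, 5 in the 24-library fit and 0 to 2 with 1 rat left out. The 102 between sham regions (50 higher) became 167 by library size (22 higher), and the 111 between TBI regions (54 higher) became 103 by library size (34 higher). The synaptic list's 2 calls in cortex (both lower) became 4 by library size (3 higher), 0 with reference scaling, 0 in the 24-library fit and 0 to 3 with 1 rat left out, its 0 in thalamus became 1 in the 24-library fit, and its 8 between TBI regions became 5 with reference scaling and 5 to 9 with 1 rat left out. Depth limited the 3p strands, with as few as 4 reads in a library.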

Other observations

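Vascular and red cell miRNAs were summed as well. The 4 vascular miRNAs (miR-126a-3p, miR-126a-5p, miR-143-3p and miR-145-5p) had a mean region-scale sum of 43585 CPM in sham cortex and 43104 in TBI cortex, and of 37615 in sham thalamus and 45154 in TBI thalamus, and 0 of the 4 were called after injury in either region. Of the 4, 1 was called higher in cortex between the sham regions and 0 between the TBI regions. The 2 red cell miRNAs (miR-451-5p and miR-144-3p) together had group means of 31.1 to 41.3 CPM, and 0 were called in any comparison.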
